A study of Mus musculus with 13 samples.

Results

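Expression of the Ras, Raf and MAP kinase core was followed in mouse duodenum, the first stretch of small intestine after the stomach. A list of 6 genes was taken: Hras and Nras, which encode small GTPases of the Ras family, Braf, a Raf kinase, Map2k1 and Map2k2, which encode the kinases MEK1 and MEK2, and Mapk3, which encodes the kinase ERK1. A member was measured by each Affymetrix probe set (a group of short probes summarised into 1 value) to which the platform annotation gives that symbol and no other. By this rule 4 of the 6 genes had a value, through 7 of the 20380 probe sets with a single symbol: 3 for Nras, 2 for Map2k2 and 1 each for Braf and Map2k1. Hras and Mapk3 are not analysed here. The brightest probe set of each gene, by its mean over all arrays, was set beside the brightest probe sets of 12393 genes in all.

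The study crossed genotype with diet in 13 mice of mixed strain background, with 1 array for each duodenum. Wild-type mice were compared with mutant mice of a line the labels call ViRas. The diets began after 5 weeks of age and ran for 22 weeks, and were a normal diet (2 wild-type and 3 mutant arrays), a high fat diet (2 and 2) and the high fat diet to which butyrate was added (1 and 3). Butyrate is a short-chain fatty acid that gut bacteria make from fibre. What promoter or cell type the mutation depends on was not stated. The duodenum was profiled as a whole tissue, in which fewer cells of a type and less RNA per cell cannot be told apart. Values are the authors' log2 expression levels from RMA, a method that corrects background and brings the arrays to a common distribution.

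In the textbook pathway, growth factor receptors load Ras with GTP through adaptor proteins and exchange factors. Active Ras brings Raf kinases to the membrane, Raf kinases phosphorylate MEK1 and MEK2, and these phosphorylate the ERK kinases, which act on transcription factors and on feedback inhibitors. In the intestinal epithelium this cascade is known for its part in crypt cell proliferation and in tumours. The flow through it is set by phosphorylation and GTP loading, so levels of messenger RNA do not measure its activity.

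The largest difference among these genes was that of Map2k2 with diet. Its brightest probe set was about 2-fold higher on high fat diet than on normal diet in both genotypes and lower again where butyrate was added. Map2k1 was lowest in wild-type mice on normal diet. Nras and Braf did not pass the test in any comparison.

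The windows of 250 bases just before the annotated gene start of Map2k2 and of Map2k1 are shown to place both MEK genes in the genome, because these were the members with differences past the threshold. They come from RefSeq for the GRCm38.p6 build, at chr10:81105665-81105914 on the plus strand for Map2k2 and at chr9:64253606-64253855 on the minus strand for Map2k1. They are written 5′ to 3′ with each GC box (the letters GGGCGG on either strand) in capitals.
Map2k2: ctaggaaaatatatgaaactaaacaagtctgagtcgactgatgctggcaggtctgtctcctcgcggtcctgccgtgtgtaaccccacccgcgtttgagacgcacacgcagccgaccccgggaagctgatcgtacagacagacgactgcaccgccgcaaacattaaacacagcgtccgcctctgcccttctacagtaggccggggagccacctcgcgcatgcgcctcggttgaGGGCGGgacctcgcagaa
Map2k1: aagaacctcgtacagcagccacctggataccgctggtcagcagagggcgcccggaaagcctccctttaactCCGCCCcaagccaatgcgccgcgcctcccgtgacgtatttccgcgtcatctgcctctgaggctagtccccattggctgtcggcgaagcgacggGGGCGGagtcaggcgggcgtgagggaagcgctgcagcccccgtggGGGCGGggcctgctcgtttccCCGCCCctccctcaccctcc
A promoter window was found for all 4 genes. The Map2k1 window held 4 GC boxes, 2 CCAAT boxes (the letters CCAAT on either strand) and 68.4% G or C, and the Map2k2 window held 1 GC box, 0 CCAAT boxes and 59.6% G or C. The windows of Braf and Nras held 1 GC box and 2 overlapping GC boxes. None of the 4 windows held the TATA box letters TATAAA on either strand, and the cyclic AMP response element TGACGTCA, which reads the same on both strands, occurred in the Braf window only, at 2 places. Of all 32851 windows of this length, 32.7% held a GC box, 33.8% a CCAAT box, 12.4% a TATA box and 1.55% the cyclic AMP response element, and their median was 52.4% G or C. These matches describe the letters and were not tied to any expression difference.

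Map2k2 encodes MEK2, a kinase that phosphorylates the ERK kinases. On normal diet its brightest probe set (1415974_at) read 9.55 and 9.42 on the wild-type arrays and 9.67, 9.95 and 9.70 on the mutant arrays. On high fat diet it read 10.58 and 10.57 in wild-type mice and 10.76 and 10.89 in mutants. With butyrate it read 9.73 in the wild-type mouse and 9.71, 9.72 and 9.68 in the mutants. All 4 high fat arrays, from 10.57 to 10.89, thus lay above the other 9 arrays, from 9.42 to 9.95. Such a gap, with the 4 high fat arrays on top, was seen in 6.31% of all genes. In order of their means the groups ran from mutant and wild type on high fat diet (10.83 and 10.57), through mutant on normal diet (9.77), wild type with butyrate (9.73) and mutant with butyrate (9.70), to wild type on normal diet (9.48). The arrays of the mutant normal diet group spread across the values of both butyrate groups.

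Map2k2 was higher on high fat than on normal diet by 1.05 ± 0.10 SE on the log2 scale in mutants (2.07-fold, limma with Benjamini-Hochberg adjustment over all 12393 genes, adjusted p = 0.000172). In wild-type mice the difference was 1.09 ± 0.11 (2.13-fold, adjusted p = 0.000377). In this comparison 1 of the 4 members passed the threshold of 0.05 in mutants and 2 of 4 in wild-type mice, Map2k2 being called in both, while 17.7% of all genes were called in mutants and 11% in wild-type mice. The diet difference of Map2k2 did not itself differ detectably between the genotypes (interaction -0.04, 95% interval -0.37 to 0.30, adjusted p = 0.990). For that interaction 0 of 4 members passed, 0 of 4 had an unadjusted p under 0.05, and 0.00807% of all genes were called.

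Map2k2 was lower on high fat diet with butyrate than without it, with a difference of -1.12 ± 0.10 SE in mutants (limma, adjusted p = 6.49e-05) and of -0.85 ± 0.14 in wild-type mice (adjusted p = 0.00339). It was the 1 member of 4 called in either genotype, where 21.7% and 14.7% of all genes were called. The comparison in wild-type mice rests on 1 butyrate array, which the model assumes to vary like the other groups, and with only the 3 arrays of these groups in the fit its adjusted p was 0.147. The comparisons of high fat with normal diet and of butyrate with high fat diet share the high fat arrays, so their opposite signs are not independent of each other. Butyrate against normal diet, which does not use those arrays, gave -0.07 ± 0.09 (adjusted p = 0.743) in mutants and 0.24 ± 0.14 (adjusted p = 0.340) in wild-type mice for Map2k2.

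**Figure D1:**
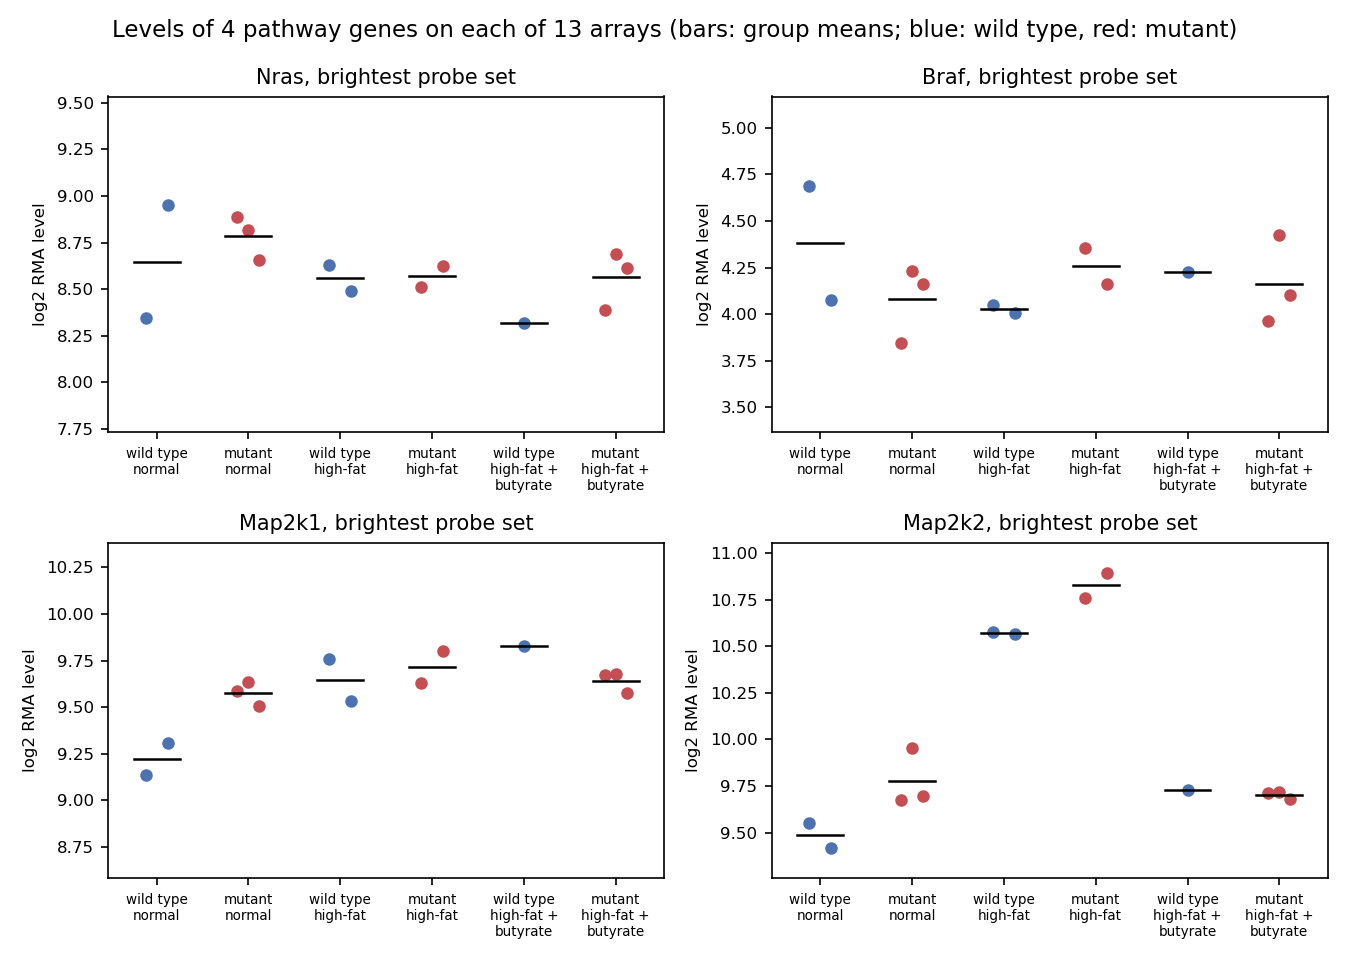
Log2 RMA level (vertical axis, each panel spanning 1.8 log2 units) of the brightest probe set of Nras, Braf, Map2k1 and Map2k2 on each of the 13 arrays in the 6 groups of genotype and diet (horizontal axis). Points are arrays, blue for wild type and red for mutant, and bars are group means. Map2k2 on the 4 high fat arrays lies between 10.57 and 10.89, above all other arrays, while for Braf each group overlaps with its neighbour in the order of means.

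Diet cannot be told apart from the series of arrays, because array identifiers in the labels run in a separate number range for each diet, whereas each genotype comparison within a diet lies inside 1 series. Known markers of duodenal epithelium also moved with the high fat diet: the mean of 8 such genes ranged from 10.43 to 11.05 on the high fat arrays and from 9.91 to 10.48 on the other 9, and 1 of the 8 genes, Gata4, separated the high fat arrays from all others. Of 7 smooth muscle markers 1 also had all high fat arrays on top, as did 6.31% of all genes. One epithelial marker, the iron absorption gene Cybrd1, spanned 6.03 log2 units (7.47 to 11.44 on the high fat arrays and 5.40 to 8.72 on the others), the widest range of the 8. Without Cybrd1 the mean of the other 7 was 10.85 to 11.09 on the high fat arrays and 10.50 to 10.74 on the rest. With the mean of all 8 markers as a covariate, an alternative added after the data were seen, the high fat difference of Map2k2 was 1.02 (adjusted p = 0.117) in mutants and 1.07 (adjusted p = 0.0328) in wild-type mice. The butyrate difference was then -1.09 (adjusted p = 0.114) and -0.83 (adjusted p = 0.0684). Under that covariate 5 genes were called among all genes for high fat diet in mutants, in place of 2197. With the mean of the 7 markers without Cybrd1 in its place, the high fat difference of Map2k2 was 0.95 (adjusted p = 0.0680) in mutants and 1.0004 (adjusted p = 0.0506) in wild-type mice, the butyrate difference was -1.01 (adjusted p = 0.115) and -0.74 (adjusted p = 0.179), and 33 genes were called for high fat diet in mutants. Acinar pancreas, which borders the duodenum, varied widely, with the mean of its 14 measured markers between 5.60 and 13.03 over the arrays. With that mean as a covariate the 4 differences of Map2k2 were 0.99, 1.17, -1.13 and -0.86, each with adjusted p at most 0.00223.

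The second Map2k2 probe set (1460636_at), which the annotation ties to the same transcript accession, gave smaller diet differences. It read 8.40 and 8.30 on the wild-type and 8.48, 8.74 and 8.55 on the mutant normal diet arrays. On high fat diet it read 8.48 and 8.51 in wild-type mice and 8.81 and 8.82 in mutants, and with butyrate 8.26 in the wild-type mouse and 8.27, 8.42 and 8.53 in mutants. Here the mutant high fat arrays were the highest, and the wild-type high fat arrays lay among those of the other diets. The high fat difference was 0.22 ± 0.11 SE in mutants (adjusted p = 0.196 over all single-symbol probe sets) and 0.15 ± 0.13 in wild-type mice (adjusted p = 0.488). The butyrate difference was -0.41 ± 0.11 in mutants (adjusted p = 0.0227) and -0.24 ± 0.15 in wild-type mice (adjusted p = 0.341).

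The gap between both Map2k2 probe sets was a feature of the high fat arrays, as was seen after their values were known. The brighter minus the dimmer probe set was 2.10 and 2.05 on the wild-type and 1.95 and 2.07 on the mutant high fat arrays, against 1.12 to 1.21 on the 5 normal diet arrays and 1.15 to 1.47 on the 4 butyrate arrays. The high fat mean of 2.04 ± 0.06 (SD, n = 4) exceeded the normal diet mean of 1.17 ± 0.04 (SD, n = 5) without overlap. The 2-fold diet difference was thus that of the brighter probe set. Averaged over both probe sets, the high fat difference was 0.64 in mutants and 0.62 in wild-type mice, both still past the threshold. Among the 4956 genes with more than 1 probe set, 336 (6.78%) had a brightest and second probe set that disagreed on this diet difference by at least as much as those of Map2k2 (0.88), and the median disagreement was 0.26.

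**Figure D2:**
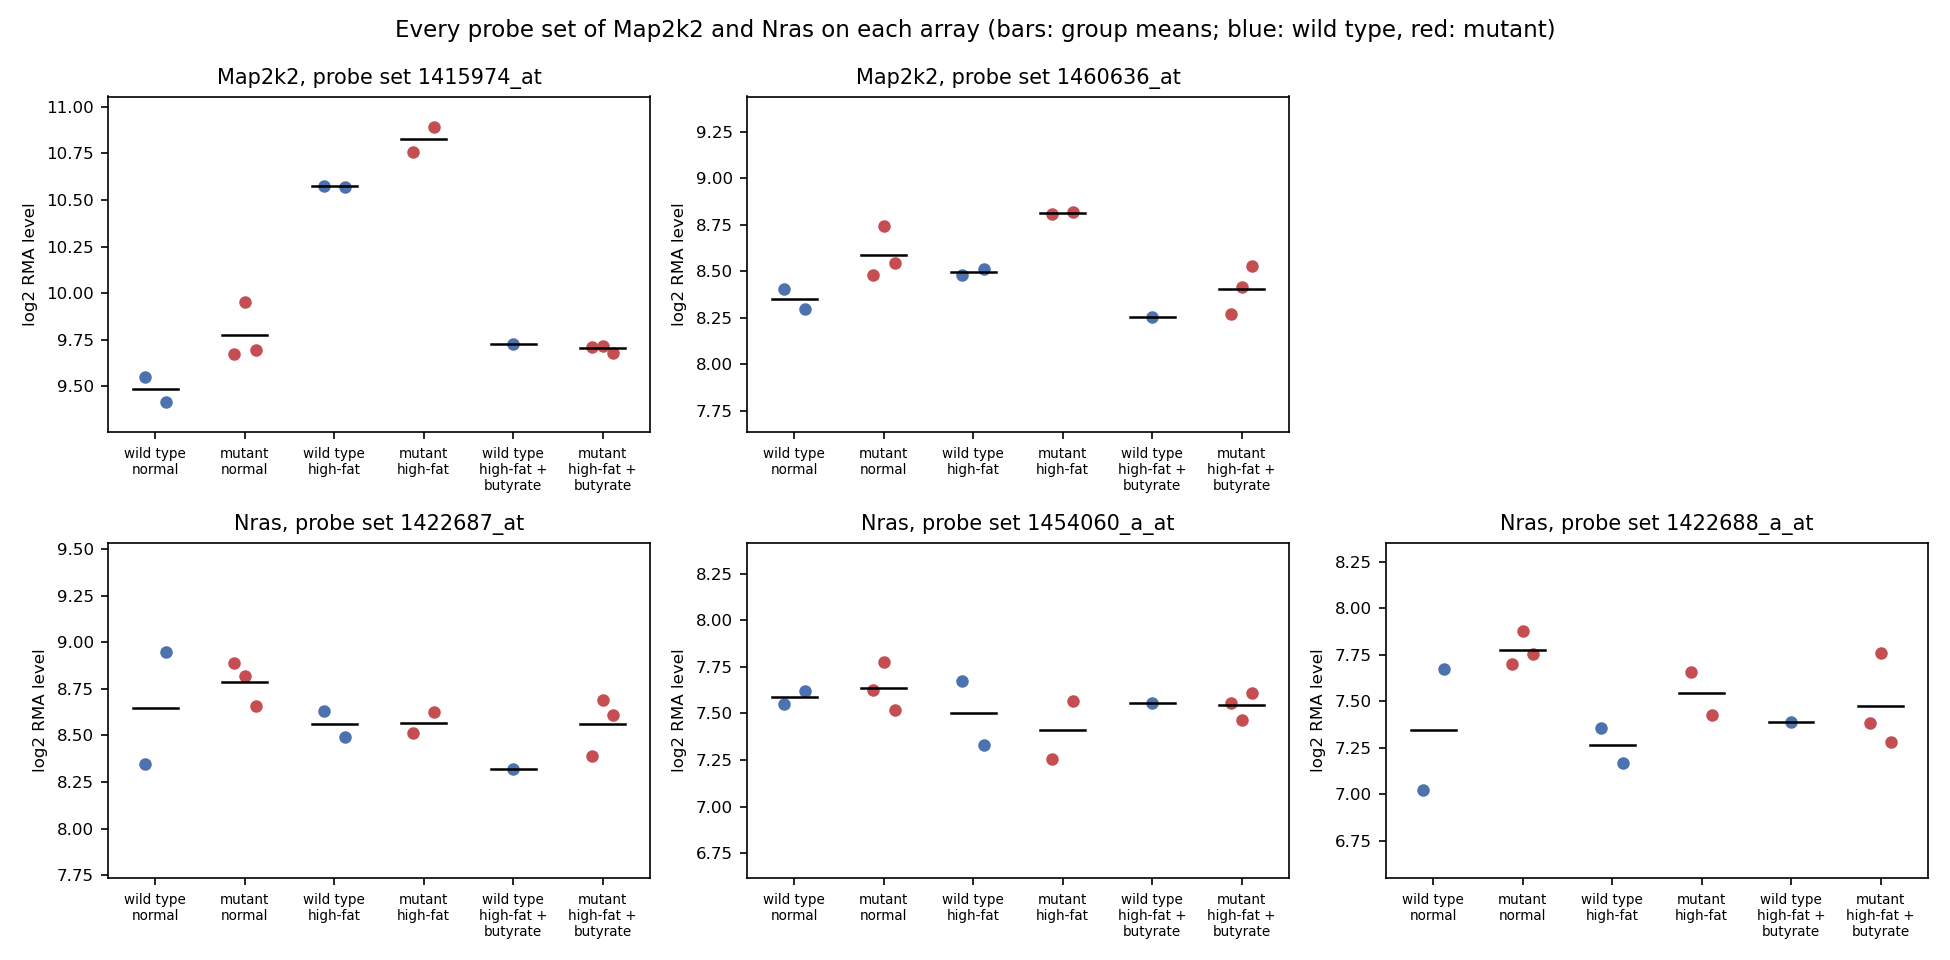
Log2 RMA level (vertical axis, 1.8 log2 units in each panel) of both Map2k2 probe sets (top) and all 3 Nras probe sets (bottom) on each array, by group (horizontal axis). Points are arrays, blue for wild type and red for mutant, and bars are group means. The high fat arrays stand apart for the brighter Map2k2 probe set and not for the dimmer one, whose high fat arrays span 8.48 to 8.82.

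Map2k1 encodes MEK1, the close relative of MEK2 with the same ERK substrates. Its probe set (1416351_at) read 9.13 and 9.31 on the wild-type normal diet arrays and 9.58, 9.64 and 9.51 on the mutant normal diet arrays. On high fat diet it read 9.76 and 9.53 in wild-type mice and 9.63 and 9.80 in mutants, and with butyrate 9.83 in the wild-type mouse and 9.67, 9.68 and 9.58 in mutants. Both wild-type normal diet arrays were the lowest of the 13, and the other 5 groups lay within 9.51 to 9.83. How many of all genes had these arrays lowest was not counted. Of neighbouring groups in the order of means, wild type with butyrate (9.83), mutant and wild type on high fat diet (9.72 and 9.65), mutant with butyrate (9.64) and mutant on normal diet (9.58), all but the first overlapped with the next, and wild type on normal diet (9.22) stood below without overlap.

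In wild-type mice Map2k1 was higher on high fat than on normal diet by 0.42 ± 0.11 SE (1.34-fold, limma, adjusted p = 0.0376). This call did not hold when any of 6 single arrays was left out (wild-type high fat arrays 1 and 2, wild-type normal diet array 1 and mutant normal diet arrays 1, 2 and 3), with an adjusted p of up to 0.216 and a difference between 0.31 and 0.53. In mutants the same difference was 0.14 ± 0.10 (adjusted p = 0.405), and the difference between the genotypes was -0.28 (95% interval -0.62 to 0.06, adjusted p = 0.915). Butyrate against normal diet in wild-type mice gave 0.61 ± 0.14 (1.52-fold, adjusted p = 0.0450), which rests on 1 butyrate array. Here 1 of 4 members was called and 2.92% of all genes. The call was lost without any of 10 of the 12 other arrays (all but wild-type normal diet array 2 and mutant butyrate array 2, adjusted p up to 0.107). For butyrate against normal diet in mutants 0 of 4 members were called by limma, 0 of 4 had an unadjusted p under 0.05, and 1.57% of all genes were called. Butyrate against high fat diet changed Map2k1 by -0.07 (95% interval -0.30 to 0.16) in mutants and by 0.19 (-0.12 to 0.49) in wild-type mice.

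Between genotypes none of the 4 members passed the threshold in limma. With diet as a term, mutants minus wild type was 0.20 ± 0.07 SE for Map2k2 (adjusted p = 0.176), 0.12 ± 0.09 for Map2k1 (adjusted p = 0.541), 0.12 ± 0.10 for Nras (adjusted p = 0.600) and -0.06 ± 0.13 for Braf (adjusted p = 0.875). Of all genes 1.02% were called. Map2k2 had an unadjusted limma p of 0.0148, the lowest of these and the one under 0.05, and 16.5% of all genes had an unadjusted p under 0.05. The second Map2k2 probe set, described above, differed by 0.24 ± 0.07 with diet as a term (limma, unadjusted p = 0.00438, adjusted p = 0.117 over all single-symbol probe sets). The intervals allow a difference of up to 0.35 for Map2k2, 0.31 for Map2k1, 0.34 for Nras and 0.23 for Braf in the upward direction.

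Within diets the genotype difference of the brightest probe set was largest on normal diet for both MEK genes. There it was 0.35 ± 0.10 for Map2k1 (unadjusted p = 0.00599, adjusted p = 0.188) and 0.29 ± 0.10 for Map2k2 (unadjusted p = 0.0158, adjusted p = 0.276), where limma called 0.0242% of all genes. For each gene the 3 mutant arrays lay above both wild-type arrays, an order whose share among all genes was not counted. On high fat diet Map2k2 differed by 0.25 ± 0.11 (unadjusted p = 0.0440, adjusted p = 0.421) and Map2k1 by 0.07 ± 0.11 (adjusted p = 0.860), with 0.0403% of all genes called. The second Map2k2 probe set differed more on high fat diet (0.32 ± 0.13, adjusted p = 0.401) than on normal diet (0.24 ± 0.11, adjusted p = 0.444), and by 0.15 ± 0.14 with butyrate (adjusted p = 0.941). The share of all genes with an unadjusted p under 0.05 was 12.7% for the normal diet comparison and 11.3% for the high fat one. With butyrate, against the single wild-type array, Map2k1 differed by -0.19 ± 0.13 and Map2k2 by -0.02 ± 0.13 (adjusted p = 0.912 and 0.994), and 0 of 4 members had an unadjusted p under 0.05. There limma called 0% of all genes, with 749 genes at an unadjusted p under 0.05. Immune cell markers moved with genotype on normal diet: the mean of 9 such genes was 8.28 to 8.52 on the wild-type and 7.29 to 7.58 on the mutant arrays. On high fat diet it was 7.89 to 8.16 in wild-type mice and 6.84 to 7.503 in mutants. With butyrate it was 7.68 on the single wild-type array, within the 7.28 to 7.90 of the mutant arrays. The part of this marker mean in the genotype differences was not tested.

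**Figure D3:**
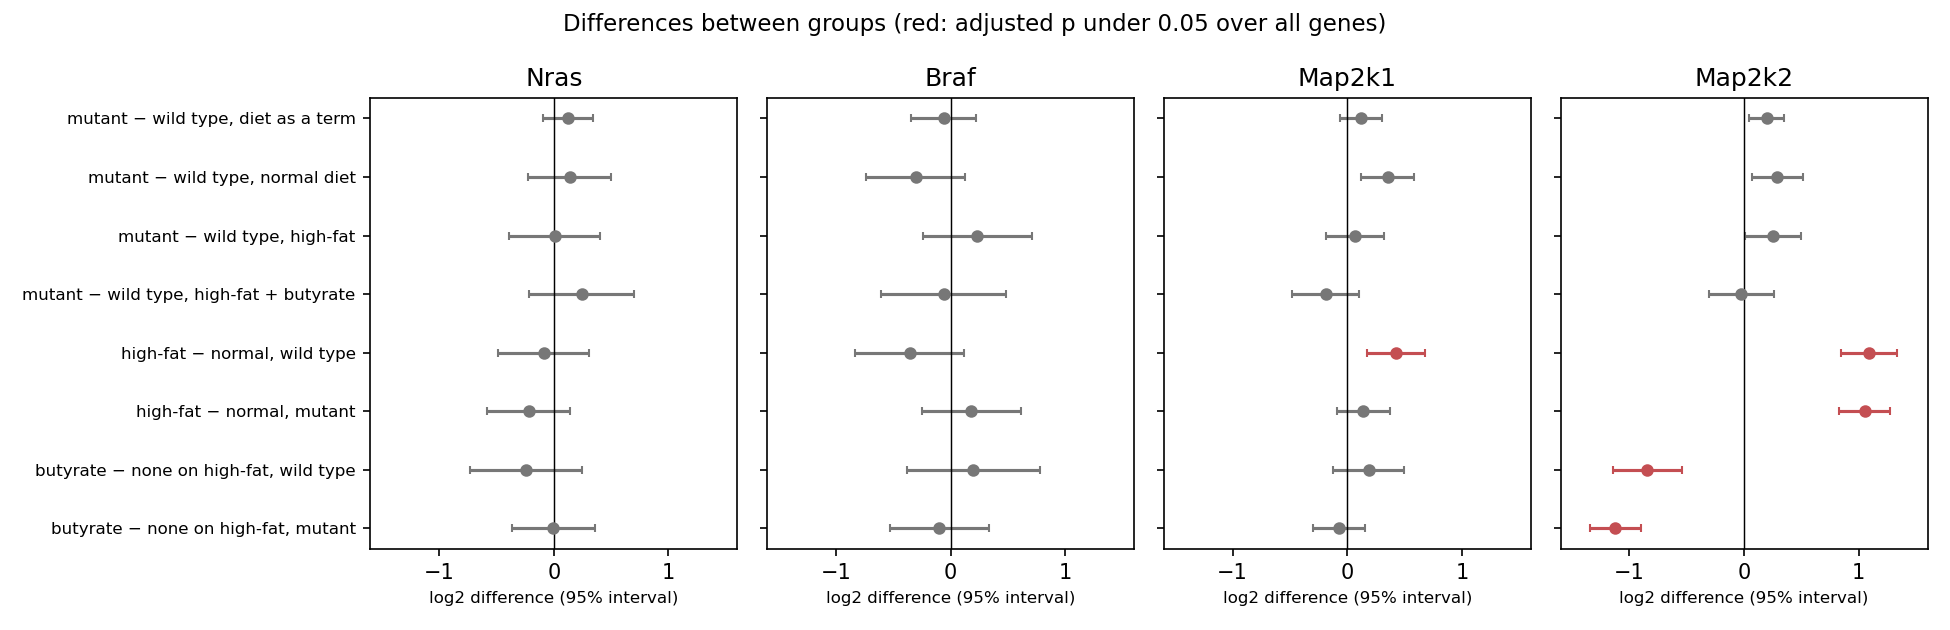
Log2 differences (horizontal axis) of the brightest probe sets of Nras, Braf, Map2k1 and Map2k2 in 8 comparisons of genotype and diet (vertical axis), with 95% intervals from limma. Red marks an adjusted p under 0.05 over all genes. Map2k2 is red in all 4 diet comparisons shown, at 1.09, 1.05, -0.85 and -1.12, and Map2k1 in 1, at 0.42.

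Nras encodes a Ras GTPase that is anchored to membranes by farnesyl and palmitoyl groups. Its brightest probe set (1422687_at) read 8.34 and 8.95 on the wild-type normal diet arrays, the widest spread of any group, and 8.89, 8.82 and 8.66 on the mutant normal diet arrays. It read 8.63 and 8.49 in wild-type and 8.51 and 8.63 in mutant mice on high fat diet, and 8.32 in wild-type and 8.39, 8.69 and 8.61 in mutant mice with butyrate. In order of their means neighbouring groups overlapped, apart from the single wild-type butyrate array, which was the lowest of the 13, and the mutant normal diet arrays all lay above the 4 high fat arrays. The share of all genes with such an order was not counted. High fat diet changed it by -0.22 (95% interval -0.58 to 0.14) in mutants and -0.09 (-0.48 to 0.31) in wild-type mice.

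The other Nras probe sets did not pass any test either. Probe set 1422688_a_at ranged from 7.02 to 7.88 over the arrays, with means of 7.78 for mutant and 7.35 for wild type in the normal diet groups, 7.54 and 7.26 in the high fat groups, and 7.48 and 7.39 with butyrate. Mutants were thus higher on each diet by their means, by 0.29 ± 0.12 SE with diet as a term (unadjusted p = 0.0298, adjusted p = 0.265 over all single-symbol probe sets), although wild-type normal diet array 2, at 7.67, lay among the mutants. Probe set 1454060_a_at ranged from 7.26 to 7.77 and differed between genotypes by -0.01 ± 0.09. Over the 13 arrays the brightest Nras probe set correlated with 1422688_a_at at r = 0.69 and with 1454060_a_at at r = 0.42, and these last with each other at r = 0.17, so the 3 probe sets did not follow 1 pattern.

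Braf encodes the Raf kinase that phosphorylates MEK1 and MEK2 most strongly. Its probe set (1425693_at) was dim, with a mean of 4.18 where the medians of whole arrays lay between 6.04 and 6.14, and detection calls were not used here. It read 4.69 and 4.08 on the wild-type and 3.85, 4.23 and 4.16 on the mutant normal diet arrays. It read 4.05 and 4.004 in wild-type and 4.36 and 4.16 in mutant mice on high fat diet, and 4.22 in wild-type and 3.97, 4.43 and 4.10 in mutant mice with butyrate. All groups next to each other in the order of means overlapped, while both mutant high fat arrays lay above both wild-type ones, an order whose share among all genes was not counted. Its high fat difference was 0.18 (95% interval -0.25 to 0.61) in mutants and -0.36 (-0.83 to 0.12) in wild-type mice, and the difference of these, 0.54, had an adjusted p of 0.915.

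Map2k2 varied most of the 4 genes. The SD of its level over the 13 arrays was 0.509, which exceeded that of 93.6% of all genes, whereas Nras, Braf and Map2k1 had SDs of 0.199, 0.220 and 0.192, near the median of 0.218 for all genes. Map2k1 and Map2k2 correlated at r = 0.48 over the 13 arrays and at r = 0.67 after the mean of each diet was removed, and Nras and Braf at r = -0.38 and -0.49. These correlations share arrays and their normalization and are given as descriptions.

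The genes most like each member over the 13 arrays, by Pearson's r after the diet means were removed, were taken from all genes with a standard symbol. For Map2k2 they were Siah2, a ubiquitin ligase (r = 0.93), Creb3l3, a transcription factor of liver and gut (r = 0.91), and Fxr1, an RNA-binding protein (r = 0.91). For Map2k1 they were Gtpbp4, a GTPase of ribosome assembly (r = 0.95), Araf, a Raf kinase (r = 0.95), and Kdm4c, a histone demethylase (r = 0.93). For Nras they were Ppm1g, a protein phosphatase (r = 0.96), Rpl8, a ribosomal protein (r = 0.92), and Tmem126a (r = 0.92). For Braf they were Arhgef25 (r = 0.94), Tnfrsf10b, a death receptor (r = 0.94), and Klhl20, an adaptor of a ubiquitin ligase (r = 0.93). With diet left in, r between Map2k2 and Fxr1 was -0.50 and r between Map2k1 and Araf was -0.16, so those likenesses appeared only once the diet means were removed. All these genes were picked as the highest in r among all genes, so a high r follows in part from the choice.

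Other genes of the pathway were read from 8 lists with 94 genes, of which 80 were measured. The lists were chosen with earlier results of these data known. Between genotypes, with diet as a term, 3 of the 80 rose in mutants and 0 fell, against 0.428% and 0.597% of all genes. These were Etv4, an ETS transcription factor that ERK signalling induces (0.65 ± 0.12 SE, limma, adjusted p = 0.0404), Spred2, an inhibitor of Raf activation (0.63 ± 0.13, adjusted p = 0.0460), and Rras, a Ras-related GTPase (0.63 ± 0.13, adjusted p = 0.0465). By diet the difference was 0.65 on normal diet, 0.59 on high fat diet and 0.75 with butyrate for Etv4. For Spred2 it was 0.58, 1.01 and 0.20, and for Rras 0.62, 0.87 and 0.34. The butyrate values rest on 1 wild-type array. For Rras the mutant butyrate arrays, at 7.23 to 7.77, lay within the 7.16 to 7.77 of the wild-type arrays. Each of the 3 calls was lost without any 1 of the 9 normal and high fat diet arrays, with adjusted p up to 0.105, and the direction was kept in every alternative run. Rras was also lost without mutant butyrate array 2 (adjusted p = 0.0507). Of 12 other alternatives, Etv4 passed in 8, Rras in 6 and Spred2 in 5, and with the mean of its probe sets Spred2 differed by 0.33 (adjusted p = 0.108). With the mean of the epithelium markers as a covariate the 3 differences were 0.49, 0.51 and 0.43, with adjusted p at or above 0.518, and without Cybrd1 in that mean 0.63, 0.63 and 0.63, with adjusted p at or above 0.115. The immune marker means that moved with genotype on normal and high fat diet, given above, stand beside these calls too. With butyrate the wild-type array lay among the mutants in that mean.

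Etv4 and Spred2 belong to the list of ERK feedback inhibitors and ETS targets, the list with the largest median genotype difference. Of its 9 measured genes 8 were higher in mutants by their estimates, and the median difference was 0.44 where that of all genes was 0.01. Like the others, the list was chosen with earlier results of these data known. By diet its median was 0.54 on normal diet, 0.53 on high fat diet and 0.20 with butyrate, the last against 1 wild-type array. Spry2, another feedback inhibitor, differed by 0.57 ± 0.15 (adjusted p = 0.0785) and Etv5, another ETS factor, by 0.55 ± 0.16 (adjusted p = 0.103). The dimmer probe sets of these genes gave smaller differences, at 0.22 for Spry2, 0.31 for Etv5 and 0.02 for Spred2. Even the brightest Etv5 probe set was dim, with a mean of 4.10. The medians of the other 7 lists lay between -0.03 and 0.12. In these 7 lists Mapk8, which encodes the stress kinase JNK1, came nearest to the threshold without passing it (0.34 ± 0.08, adjusted p = 0.0660), and Mknk2, a kinase that ERK phosphorylates, differed by 0.35 ± 0.10 (adjusted p = 0.0919).

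More of the pathway differed with high fat diet than with genotype, as did more of all genes. Of the 80 genes, 11 rose and 4 fell in mutants and 8 rose and 2 fell in wild-type mice, where 17.7% and 11% of all genes were called, and 8 were called in both genotypes with the same sign (10% of the 80, against 8.14% of all genes). The genotypes share no arrays in this comparison. The 8 genes, named after their values were seen, were Grb2, Shc1, Sos1, Shoc2, Ksr1 and Lypla2, which rose, and Lypla1 and Elk4, which fell. These counts use the brightest probe set of each gene, and some dimmer ones differed more. A dimmer Mknk2 probe set differed by 1.53 in mutants and 1.16 in wild-type mice, where the brightest gave -0.03 in each. A dimmer Mapk8 probe set differed by -1.97 in each genotype. Another gave 0.23 in mutants and -0.17 in wild-type mice, and the brightest Mapk8 probe set gave 0.10 and 0.13.

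Grb2 and Shc1 are adaptors that link receptors to Ras exchange factors. Grb2 was higher on high fat diet by 0.82 ± 0.14 SE in mutants and 0.61 ± 0.16 in wild-type mice (limma, adjusted p = 0.00351 and 0.0305), and the difference of butyrate from high fat diet was -1.25 ± 0.14 and -1.27 ± 0.19. Its level was 8.63 to 8.97 on the 4 high fat arrays, 7.92 to 8.39 on normal diet and 7.39 to 7.65 with butyrate, so the 3 diets did not overlap. The share of all genes with 3 separate diets was not counted. The wild-type call was lost without wild-type high fat array 2, wild-type normal diet array 2 or mutant normal diet array 1 (adjusted p = 0.212, 0.148 and 0.0501), and it passed in 5 of 11 other alternatives, with adjusted p up to 0.200 and a difference down to 0.28 with the mean of its probe sets. The dimmer Grb2 probe set showed no such difference, at 0.04 in mutants and -0.05 in wild-type mice.

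Shc1 was higher on high fat diet by 0.69 ± 0.13 in mutants and 0.80 ± 0.14 in wild-type mice (limma, adjusted p = 0.00436 and 0.00552), and its second probe set gave 1.298 and 1.54. Its level was 8.29 to 8.64 on the high fat arrays and 7.51 to 7.90 on all others. Such a gap, which Shoc2 also had, was seen in 6.31% of all genes. The calls were lost without mutant high fat array 1 (adjusted p = 0.0540) and wild-type high fat array 2 (adjusted p = 0.0520). Shoc2, a scaffold that helps to activate Raf kinases, was higher by 0.65 ± 0.13 and 0.82 ± 0.15 (adjusted p = 0.00801 and 0.00656), with 0.82 and 0.71 for its second probe set. Its high fat arrays, at 8.66 to 9.11, lay above all others, at 7.81 to 8.31, and the mutant call was lost without mutant high fat array 2 (adjusted p = 0.0585).

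The other 5 genes had calls that 1 array could end, between 1 and 9 of the 13 arrays for each gene and genotype. Sos1, a Ras exchange factor, was higher by 0.64 in mutants and 0.60 in wild-type mice, while its other probe sets gave 0.63 and 0.22 for the one and -0.09 and -0.08 for the other. Ksr1, a scaffold for Raf, MEK and ERK, was higher by 0.67 and 0.68. Lypla2, a thioesterase that can remove palmitate from proteins, was higher by 0.42 and 0.44, while its relative Lypla1 differed by -0.65 and -0.72. Elk4, an ETS factor that ERK phosphorylates, differed by -0.56 in each genotype, and both of its other probe sets lay between -0.04 and 0.08. With the mean of the epithelium markers as a covariate, adjusted p for high fat diet was 0.130 for Grb2, 0.422 for Shc1 and 0.144 for Shoc2 in mutants. That covariate is among 11 alternatives that leave out no single array. Over these the mutant difference ranged from 0.43 to 1.23 for Grb2, 0.62 to 0.99 for Shc1 and 0.64 to 1.08 for Shoc2.

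**Figure D4:**
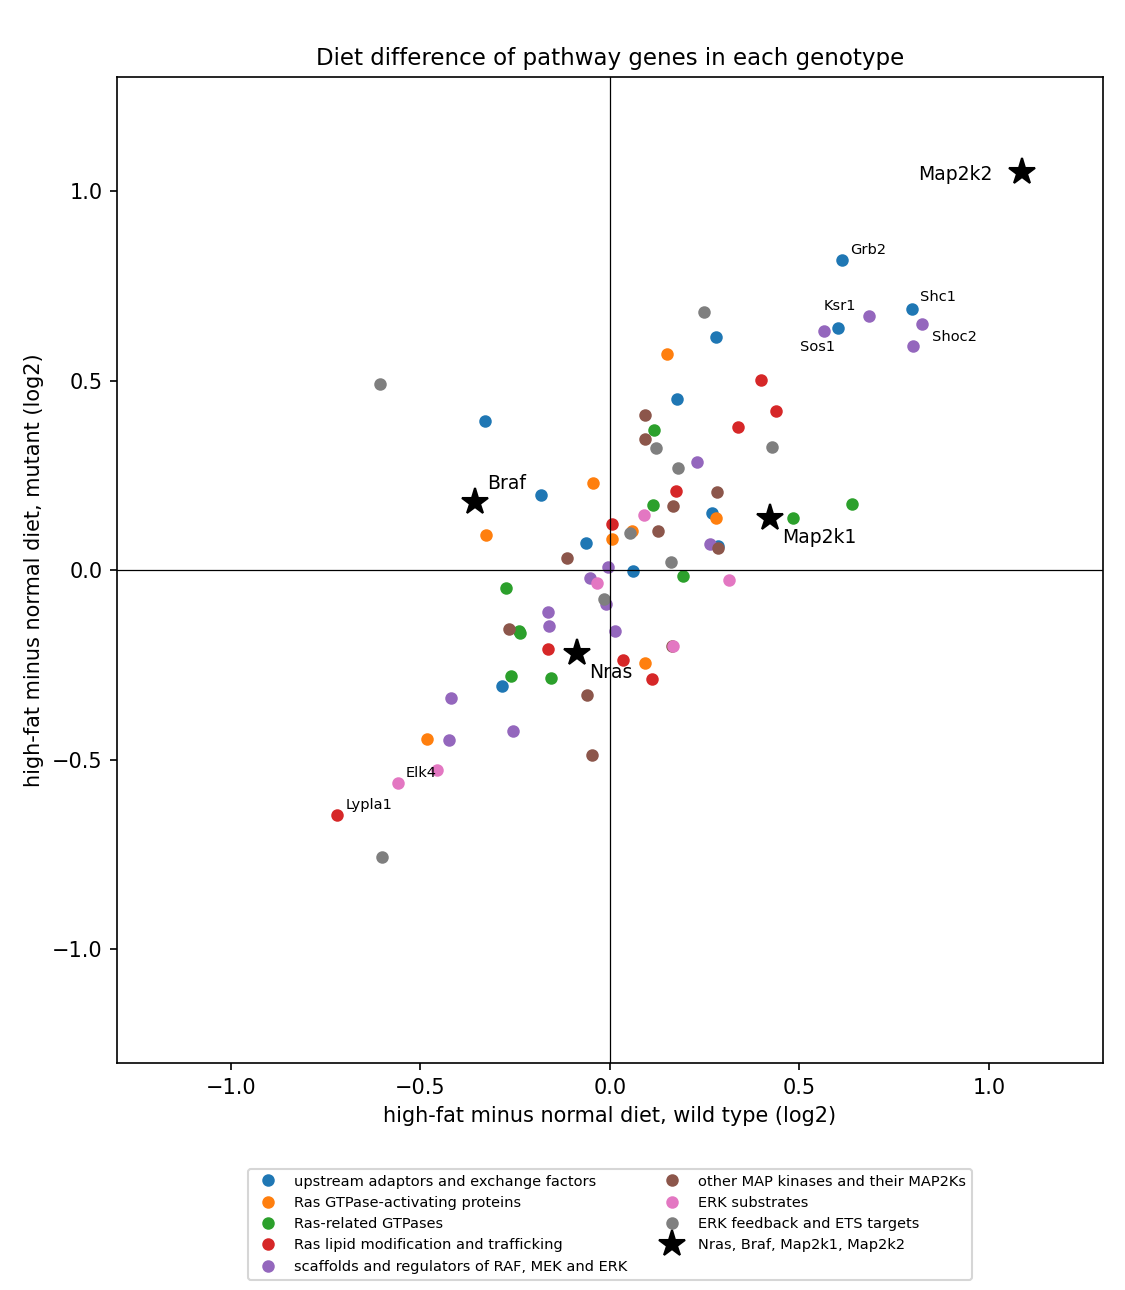
High fat minus normal diet (log2) in wild-type mice (horizontal axis) and in mutants (vertical axis) for 80 genes of 8 pathway lists, 1 dot a gene coloured by list, and for the 4 members (stars). Each gene is shown by its brightest probe set. By these, Map2k2, at 1.09 and 1.05, lies beyond every dot. Grb2, Shc1, Sos1, Shoc2 and Ksr1 lie on the same side of 0 in both genotypes, and Lypla1 and Elk4 lie below 0 in both. Dimmer probe sets of Shc1, Mknk2 and Mapk8, which are not drawn, differed by more than Map2k2.

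With butyrate against high fat diet alone, 6 of the 80 genes were higher and 12 lower in mutants, and 10 were higher and 10 lower in wild-type mice, where 21.7% and 14.7% of all genes were called. Butyrate against normal diet, which leaves out the high fat arrays, called 1 of the 80 in mutants and 3 of the 80 in wild-type mice, against 1.57% and 2.92% of all genes. Grb2, Shc1 and Shoc2 were among the genes called lower with butyrate in both genotypes, at -1.25, -0.62 and -0.71 in mutants and -1.27, -0.94 and -1.05 in wild-type mice. These values share the high fat arrays with the diet differences above.

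Markers of the labelled tissue were high on the arrays. The epithelial genes Vil1, Fabp2 and Epcam had mean levels of 12.1, 13.5 and 12.5, and the proximal gut factors Pdx1 and Gata4 7.45 and 8.63, whereas the ileal genes Fabp6 and Slc10a2 were at 3.35 and 2.15. Markers of acinar pancreas and some of stomach were high on some arrays of most groups, with list means up to 13.03 and 9.43. In the stomach list Gkn1, Gkn2 and Tff1 reached 12.2, 13.4 and 13.5 and Muc5ac 8.09. Atp4a and Atp4b reached no more than 4.86 and 5.63 on any array. Over the 13 arrays the acinar mean correlated with Map2k2 at r = -0.00, with Map2k1 at r = 0.03, with Nras at r = 0.16 and with Braf at r = -0.27. After the mean of each diet was removed, r was -0.43 for Map2k2, 0.11 for Map2k1, 0.12 for Nras and -0.27 for Braf. Precision is limited by how few arrays each group holds.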

How the data were processed

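Values are those the authors deposited, on a log2 scale, from Affymetrix Expression Console 1.1 with RMA, per the submitters' processing notes. The labels' protocols give 200 ng of RNA and a kit for whole-transcript arrays, but the probe sets carry names of a design that reads transcript ends. Which genome build they rest on was not stated in the sources. The members and all gene lists were chosen with earlier results of these data known. The mutated gene is not reported here. Of 22690 probe sets, 64 were controls, 20380 had exactly 1 symbol, 691 several genes and 1555 no entry.

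Tests were two-sided, in R 4.3.3 with limma 3.58.1 (lmFit, contrasts, eBayes with an intensity trend), adjusted by Benjamini-Hochberg over 12393 genes or 20380 probe sets at 0.05. All 13 arrays entered each fit, either as 6 groups, with 7 residual degrees of freedom, or as additive effects of diet and genotype, with 9. There were 11 planned comparisons and 1 added. The procedure was tested on simulated data. The series text calls the samples mice, and p-values reflect only how far these samples spread. No pair of arrays had over 408 values equal to 3 decimals. Named were all members, up to 4 genes a list by smallest genotype p, and the 3 genes most like each member. Alternatives were another quantile normalization, leaving out genes under the 30th percentile, the mean of probe sets, no trend, array weights, all probe sets, marker means as covariates, a replicate block, the compared arrays alone, other weightings of the diets, and leaving out each array.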

Additional observations from a re-analysis of the deposited data

Results flagged for a closer look

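Map2k1 differed between genotypes in opposite directions on normal diet (mutant minus wild type 0.35) and with butyrate (-0.19), where each mutant array lay above both wild-type arrays on normal diet and below the single wild-type array with butyrate. The difference of these, a comparison added after the values were seen, was -0.54 ± 0.17 SE (limma, unadjusted p = 0.00806, adjusted p = 0.631). The brightest Map2k2 probe set gave 0.29 on normal diet and -0.024 ± 0.13 SE with butyrate, a value whose interval holds 0, and the difference of these was -0.31 ± 0.16 (adjusted p = 0.682). The second Map2k2 probe set gave 0.15 with butyrate, so the change of sign was not one of both probe sets. Map2k2 also differed by 0.25 on high fat diet, with both mutant arrays above both wild-type arrays, against -0.024 with butyrate, and this last difference was not tested. All 3 contrasts rest on 1 wild-type butyrate array, and the share of all genes with such orders of arrays was not counted.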

How the results depend on the processing

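Of the counts of members past the threshold, those for genotype, in all diets and in each, for butyrate against normal diet in mutants and for the high fat interaction stayed at 0 in every alternative run. The count for high fat diet in wild-type mice fell from 2 to 1, by the loss of Map2k1, without an intensity trend, with array weights, with the acinar or the epithelium marker mean as a covariate, with the replicate block and with the compared arrays alone, and was 1 to 2 with each array left out. The count for butyrate against normal diet in wild-type mice fell from 1 to 0 with repeated quantile normalization, without a trend, with array weights, with the acinar covariate, with the replicate block and with the compared arrays alone, and was 0 to 1 with each array left out. With the epithelium covariate, with or without Cybrd1, the counts for high fat diet in mutants and for butyrate against high fat diet in both genotypes fell from 1 to 0, and without Cybrd1 those for high fat and for butyrate against normal diet in wild-type mice also fell to 0. The count for butyrate against high fat diet also fell to 0 in wild-type mice with the compared arrays alone, which leaves 1 residual degree of freedom. The cause was not tested. Replicate numbers do not pair the samples: same-numbered arrays had deviations that correlated between -0.33 and 0.42.

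Signs changed only for differences that passed no test. Braf between genotypes turned to 0.021 with array weights and was -0.12 to 0.077 with each array left out. On normal diet the ranges with each array left out were -0.16 to 0.44 for Nras and -0.61 to 0.0043 for Braf. On high fat diet the genotype difference of Nras was -0.0094 with repeated quantile normalization, -0.18 with the epithelium covariate and -0.063 to 0.079 with each array left out, that of Map2k1 -0.042 to 0.18, and that of Braf -0.055 with the epithelium covariate. With that covariate less Cybrd1 the genotype difference of Nras on high fat diet was -0.081, the high fat difference in mutants was -0.060 for Braf and -0.091 for Map2k1, and butyrate against high fat diet in mutants gave Map2k1 0.195. With butyrate the genotype difference of Map2k2 was 0.078 with repeated quantile normalization and 0.061 with the mean of probe sets, and that of Braf -0.19 to 0.039. The high fat difference with the epithelium covariate was -0.41 for Braf and -0.0045 for Map2k1 in mutants, and for Nras in wild-type mice -0.39 to 0.22 with each array left out. Butyrate against high fat diet in mutants gave Map2k1 0.068 with the epithelium covariate and -0.16 to 0.013 with each array left out. Butyrate against normal diet in mutants gave Map2k2 -0.12 to 0.017. The high fat interaction of Map2k2 was 0.021 with the mean of probe sets and -0.10 to 0.053 with each array left out.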

Other observations

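Rasal2, which encodes a GTPase-activating protein that switches Ras off, was the pathway gene called with butyrate against normal diet in both genotypes, and it was picked after its values were seen. Its level was 3.59 on the wild-type and 3.09 to 3.77 on the mutant butyrate arrays, against 4.92 to 5.81 on all 9 arrays without butyrate. How many of all genes had such a gap was not counted. In mutants butyrate differed by -2.00 from high fat diet (limma, adjusted p = 0.000516) and by -1.92 from normal diet (adjusted p = 0.00304). In wild-type mice, with 1 butyrate array, the differences were -1.49 (adjusted p = 0.0171) and -1.48 (adjusted p = 0.0464). The mutant difference from normal diet passed in each of the 23 alternatives run, and the wild-type one in 5 of 22. The probe set lay below the median of each array, 6.04 to 6.14.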
